A study of Mus musculus with 33 samples.

Results

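The genes described here are those of the proteins of the cytosolic ribosome, measured in enteric neural crest cells (ENCCs) with and without GDNF and in whole embryonic gut. Members were all genes named by probe sets with exactly 1 gene symbol, where that symbol was Rpl or Rps with a number and at most 1 letter a, x, y or l after it, or was Rplp0, Rplp1, Rplp2 or Rpsa. This gave 46 genes with 100 probe sets, of 18193 genes with 34945 probe sets in all. Of the members, 22 belong to the small subunit and 24 to the large subunit. A further 28 ribosomal protein names, among them Rpl3, Rpl5, Rpl10, Rplp1 and Rps23, occurred only on probe sets that carry several symbols and were not analysed here.

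The ribosome translates mRNA into protein: its small subunit reads the message and its large subunit joins the amino acids, and each holds 1 copy of nearly all of its proteins. The mRNAs of these proteins are abundant in most cells and are known for a run of pyrimidines at their 5′ end, through which the mTOR pathway and the RNA-binding protein Larp1 set how actively they are translated. Several of the proteins also act outside the ribosome, and inherited loss of 1 copy of a member can cause Diamond-Blackfan anaemia. ENCCs are the migrating precursors of the enteric nervous system. GDNF, a ligand secreted by the gut wall, acts on them through the receptor Ret and its partner Gfra1.

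ENCCs came from embryos of day 14.5 on a C57BL/6 background that carried Wnt1-Cre and a LoxP-controlled YFP at R26, so that cells of neural crest origin were fluorescent. The YFP cells of a gut were sorted by FACS and divided over a pair of wells coated with fibronectin, in medium with FGF and EGF that both wells shared. To 1 well of each pair GDNF was given at 50 ng/ml, and the other was left untreated. The whole guts came from wild-type C57BL/6 embryos of day 14.5, from the duodenum to the anus, and no culture is described for them. Their cell type label reads as ENCCs from gut, against their source and genotype labels, and they are taken here as whole gut. The labels state neither the length of the culture nor whether guts came from separate litters. The 33 Affymetrix arrays held 12 of untreated ENCCs, 13 of GDNF-treated ENCCs and 8 of whole gut. The 18 ENCC RNAs came from 9 guts, and 7 of the RNAs were hybridised in both of the batches that the labels name (17 arrays in batch 1, 16 in batch 2). Whole gut was read only in batch 2.

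The deposited values are scores within an array, not intensities: each array has a median of 0 and runs from -4.084 to 4.084. No fold change can be given: among ENCCs, 1 unit is close to the standard deviation (SD) of a probe set within a batch. The score of a gene is the mean of its probe sets. A shift common to all genes is not kept, so that lower means lower relative to the other genes of the array. In bulk RNA, fewer cells of a type and less RNA per cell cannot be told apart.

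The labelled cell types were compared with their markers in batch 2. In untreated ENCCs 17.7% of all genes were called lower than in whole gut and 14.9% higher. Of the ENCC markers 5 of 8 were called higher in untreated ENCCs than in whole gut, as were 8 of 8 neuron markers, and 9 of 9 epithelial and 5 of 5 endothelial markers were called lower. Other lists were mixed: of 9 smooth muscle and mesenchyme markers 4 were called lower, with Col1a1 (0.47) and Pdgfrb (0.15) above whole gut but not called, and of 5 macrophage markers 3 were lower and Adgre1 was higher (1.96). Of 3 erythroid markers 2 were lower. The arrays of an ENCC RNA stood apart from each other. For the untreated well of gut 3, the scores over all genes correlated between batches at 0.143, below the 0.167 with another untreated RNA. For the other 6 RNAs read in both batches the values were 0.277 to 0.362, and of these the treated well of gut 8, at 0.277, also correlated better with another treated RNA (0.297). For the untreated well of gut 3 the median score of the 46 members was 1.30 in batch 1, the highest of all untreated arrays. In batch 2 it was -0.30, where the other 3 untreated arrays lay between 0.62 and 0.89. The correlation does not say which of its arrays departs, and no fit left out the batch 1 array alone. The batch 2 array was the lowest of the 8 ENCC arrays of that batch for 12 of 46 members (26.1%), against 16.7% of all genes. Results that rest on it are given with and without it.

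**Figure D1:**
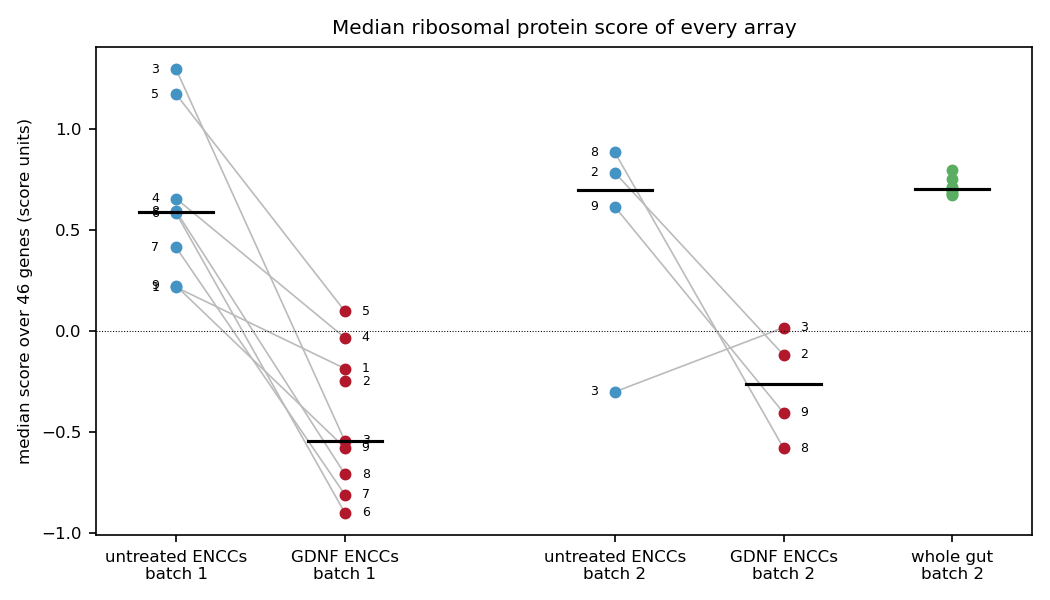
Median score of the 46 ribosomal protein genes (vertical axis, score units) on each of the 33 arrays, by group and batch; digits are gut numbers, grey lines join the wells of a gut on arrays of the same batch, and black bars are group medians. In batch 1 each of the 8 treated wells with an untreated partner lies below it, and in batch 2 the untreated array of gut 3, at -0.30, lies below its treated partner at 0.02, while the whole guts lie between 0.67 and 0.80.

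The first comparison asked what GDNF changed in ENCCs of the same gut. Ribosomal protein genes were lower in the treated wells: 30 of 46 members (65.2%) fell and 0 rose (limma on the 9 differences by gut, Benjamini-Hochberg adjusted p under 0.05 over all 18193 genes). Among all genes, 13.2% were called lower and 18.3% higher. The mean difference was below 0 for 44 of 46 members, with a median of -0.91 over members against 0.0055 over all genes. For 19 members the treated well was lower in 9 of 9 guts, which held for 6.14% of all genes. At an unadjusted p under 0.05, 18.5% of all genes were lower and 22.6% higher.

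The guts differed in how far the family shifted. The median difference over the 46 members was -0.39 in gut 1, -0.52 in gut 4, -0.70 in gut 3, -0.87 in gut 2, -0.90 in gut 9, -1.04 in gut 5, -1.26 in gut 7, -1.44 in gut 8 and -1.45 in gut 6. It was below 0 in all 9 guts, and the share of members that were lower ran from 31 of 46 in gut 1 to 42 of 46 in guts 5, 6, 7 and 9. Guts 3, 8 and 9 had both wells read in both batches. In gut 8 the median difference was -1.36 in batch 1 and -1.47 in batch 2, and in gut 9 it was -0.92 in both batches. In gut 3 it was -1.86 in batch 1, with 44 of 46 members lower, and 0.23 in batch 2, with 21 of 46 lower.

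Batch 1 alone, with 8 guts, called 30 members lower and 0 higher, with a median of -1.12 over members. It called 12.2% of all genes lower and 17% higher. Batch 2 alone, with 4 guts, called 0 members, as it called 0 of all genes, and its median over members was -0.73. In batch 2 the mean difference was above 0 for 13 members, against 2 in batch 1. Without gut 3 it was above 0 in batch 2 for 6 members. Of the 13, 4 were among the 30 called lower over all guts: Rpl10a (0.52), Rpl11 (0.40), Rpl19 (0.61) and Rpl8 (0.64). Without gut 3 these differed by -0.23, -0.27, -0.15 and -0.13 in batch 2, against -1.36, -1.12, -1.51 and -1.59 in batch 1. Their only probe sets correlated between batches at -0.919, -0.737, -0.809 and -0.353. When the untreated array of gut 3 in batch 2 was left out, 34 members were called lower, against 13.9% of all genes. With gut 3 left out of both batches, 31 members were called lower, against 11.8% of all genes.

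The P stalk of the large subunit recruits the GTPase factors of translation. Of its 3 listed genes 2 were measured, and these 2 were called lower, as were 65.2% of all members. Rplp0 anchors the stalk, and its difference ran from -2.30 to -0.54 over the guts with a median of -1.46. With the arrays of an RNA averaged over batches, the untreated RNAs scored 0.52 to 1.56 and the treated ones -0.98 to -0.02, without overlap. By single array they overlapped, since the untreated array of gut 3 in batch 2, at -0.12, lay below the highest treated array at -0.02. The mean difference was -1.45 ± 0.58 (SD, n = 9 guts; limma adjusted p = 0.00036). Rplp2, which binds Rplp0 as part of a dimer, differed by -2.84 to -0.22 with a median of -1.57, and was lower in 9 of 9 guts. Its mean difference was -1.56 ± 0.90 (SD, n = 9 guts; limma adjusted p = 0.00106).

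The lowest mean difference of any member was that of Rps25, a small subunit protein known to be needed for translation from several viral internal ribosome entry sites. Its single probe set differed by -2.59 to -1.44 over the 9 guts, with a median of -1.71. The untreated RNAs scored -0.02 to 2.04 and the treated RNAs -1.51 to -0.25, without overlap, and by single array the highest treated score was -0.19, again below all untreated ones. The mean was -1.76 ± 0.35 (SD, n = 9 guts; 95% interval -2.19 to -1.34; limma adjusted p = 6.5e-05). Rpl13a, a large subunit protein that also takes part in a translational silencing complex, differed by -2.21 to -0.65 with a median of -1.40. Averaged over batches, its untreated RNAs scored 0.44 to 1.41 and its treated RNAs -1.06 to -0.19, without overlap. By single array the untreated array of gut 3 in batch 2, at -0.29, lay below the highest treated array at -0.15. The mean over its 4 probe sets was -1.57 ± 0.54 (SD, n = 9 guts; limma adjusted p = 0.00018).

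Paralogues are given side by side, and no difference between them was tested. Rps27l, a paralogue of Rps27 known as a p53 target, differed by -2.76 to -0.31 with a median of -1.64. Its untreated RNAs scored 0.12 to 1.52 and its treated RNAs -1.06 to -0.19, without overlap (0.04 or more and -0.19 or less by single array), and its mean was -1.60 ± 0.66 (SD, n = 9 guts; limma adjusted p = 0.00028). Rps27 itself differed by -2.05 to 2.55 with a median of -1.24. It was lower in 7 of 9 guts, gut 2 lay far above the others, and its mean of -0.62 ± 1.41 did not pass (SD, n = 9 guts; limma adjusted p = 0.268). Without gut 2 its mean was -1.02 and was called.

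Rpl39, a small protein that lines the exit tunnel, differed by -2.53 to 0.06 over the guts with a median of -1.11 and a mean of -1.18 ± 0.95 (SD, n = 9 guts; limma adjusted p = 0.00766), which was not called with the 5′ minus 3′ controls described further on as a covariate (-0.97). In its testis paralogue Rpl39l the difference ran from -1.22 to 2.56, with 5 of 9 guts lower, and the mean of 0.29 ± 1.12 did not pass (SD, n = 9 guts; limma adjusted p = 0.567). Rpl3l, the paralogue of Rpl3 known from striated muscle, ran from -2.86 to 1.48, and its mean of -0.20 ± 1.31 did not pass either (SD, n = 9 guts; limma adjusted p = 0.732). The 95% intervals of these means were -0.43 to 0.999 for Rpl39l and -1.01 to 0.61 for Rpl3l, so differences of either sign remain within them.

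Of 8 genes on the exit tunnel list 4 were measured. All 4 fell, with a median of -1.21, where 65.2% of all members and 13.2% of all genes fell. For 1 of them, Rpl19, the only probe set correlated at -0.809 between batches. The difference of Rpl19 was 0.61 in batch 2 alone, and -0.15 there without gut 3. Rpl4, whose long loop reaches into the tunnel, was lower in 9 of 9 guts, from -2.54 to -0.16 with a median of -1.31, and its mean was -1.25 ± 0.81 (SD, n = 9 guts; limma adjusted p = 0.00299). Along the mRNA channel of the small subunit, 2 of 5 measured members fell, Rps14 by 1.33 and Rps28 by 1.06, and the median was -0.69. The others, Rps26, Rps3 and Rps2, lay just past the threshold (limma adjusted p = 0.0535, 0.0542 and 0.0701). Whether the channel and tunnel lists differed was not tested. Rpl22, which is known for a role in T cell development, differed by -2.27 to -0.43 and fell by 1.19 on average (SD 0.61, n = 9 guts; limma adjusted p = 0.00161). With the most reproducible of its 3 probe sets alone the value was -0.61 and not called.

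Rpl11 and Rpsa were chosen by their known roles outside the ribosome, and no list of such members was tested. Rpl11 joins 5S rRNA and Rpl5 in a particle that can bind and inhibit Mdm2. It was lower in 8 of 9 guts, from -1.49 to 0.08 with a median of -0.58, and its mean was -0.66 ± 0.50 (SD, n = 9 guts; limma adjusted p = 0.0311). This call rested on many choices: without gut 4, 5, 6, 7 or 8 the mean was -0.66, -0.57, -0.66, -0.56 or -0.68 and not called, and in batch 2 alone the difference was 0.40. Without gut 3, the batch 2 difference of Rpl11 was -0.27. Rpsa, which is also known as a laminin receptor, was lower in 9 of 9 guts, from -1.75 to -0.57, with a mean of -1.05 ± 0.43 (SD, n = 9 guts; limma adjusted p = 0.00167).

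Rps6, the substrate of the S6 kinases downstream of mTOR, was also lower in 9 of 9 guts, from -1.5 to -0.11 with a median of -0.54. Its untreated RNAs scored -0.03 to 1.30 and its treated RNAs -0.72 to 0.16, so the groups overlapped. The mean was -0.68 ± 0.46 (SD, n = 9 guts; limma adjusted p = 0.0233), and it was not called without gut 4 (-0.58), without gut 8 (-0.64), in either batch alone (-0.68 and -0.60), or with the hybridisation controls (-0.61) or the 5′ minus 3′ controls (-0.72) as a covariate. Its 2 probe sets disagreed in size: 1 differed by -1.28 (limma adjusted p = 0.00146) and correlated at 0.928 between batches, and the other differed by -0.093 (limma adjusted p = 0.852) and correlated at 0.0795.

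Rps19, the member mutated most often in Diamond-Blackfan anaemia, was lower in 8 of 9 guts, from -2.23 to 0.38 with a median of -1.36. The exception was gut 1. Its mean was -1.31 ± 0.80 (SD, n = 9 guts; limma adjusted p = 0.00201). Of the 9 measured members linked to that disease, 8 fell, where 65.2% of all members fell, and the median over the 9 was -0.86. By subunit, 15 of 22 small subunit members and 15 of 24 large subunit members fell, with medians of -0.90 and -0.91. Of all genes, 13.2% were called lower.

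The 2 members with a mean above 0 were Rpl39l and Rps16. Rps16, a small subunit protein whose tail reaches the decoding centre, is singled out here after its values were seen. Its difference ran from -0.44 to 2.29 with a median of 0.59, and was above 0 in 7 of 9 guts. The untreated RNAs scored -1.44 to 0.77 and the treated RNAs -0.31 to 1.36, so the groups overlapped. The mean was 0.67 ± 0.88 and did not pass (SD, n = 9 guts; limma adjusted p = 0.0872). It was called higher without gut 1 (0.81) and in the fit over all ENCC arrays (0.84). Its only probe set correlated at 0.592 between batches over the 7 RNAs.

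**Figure D2:**
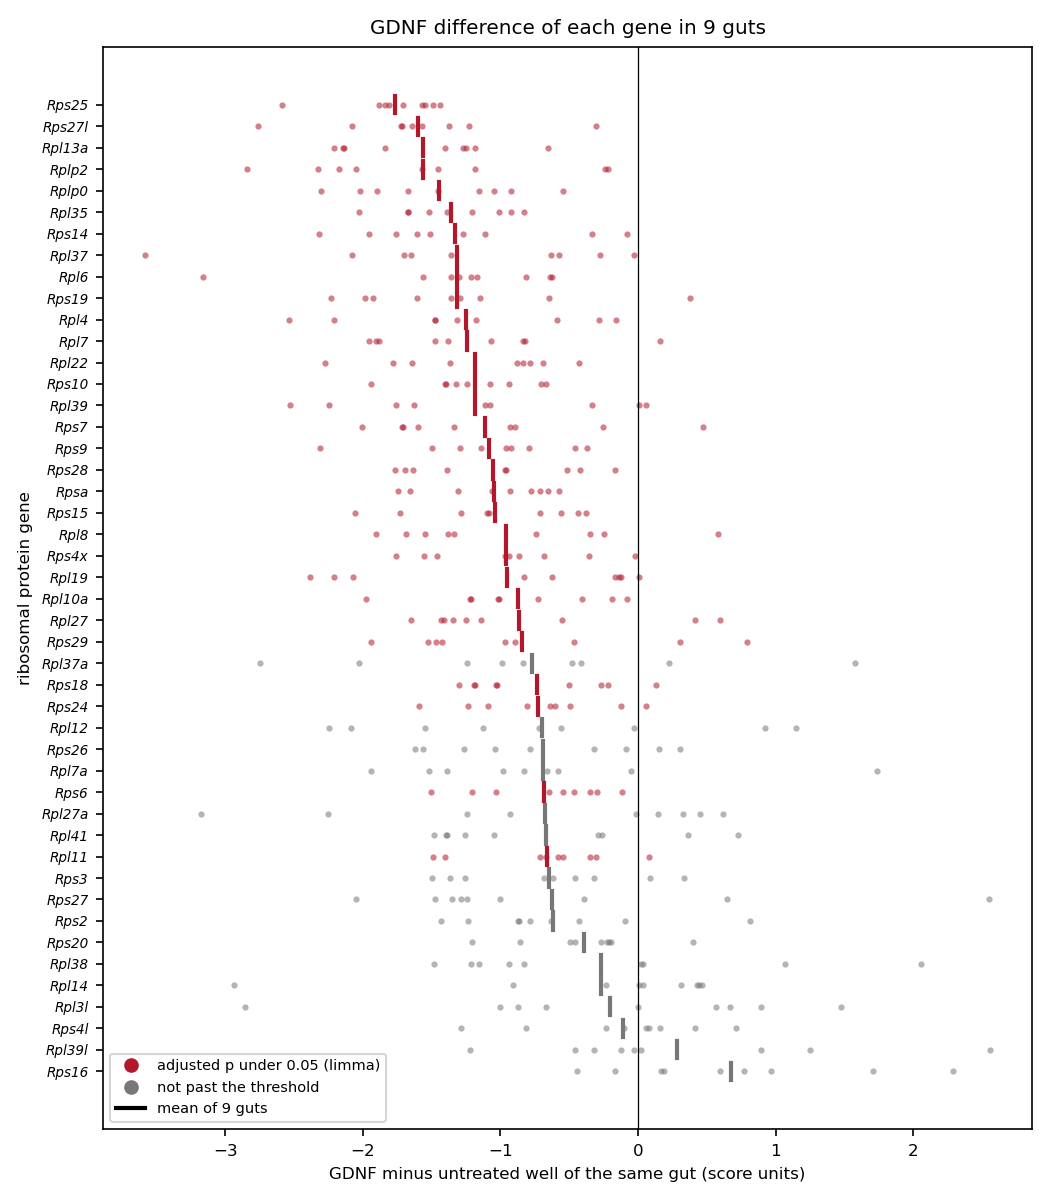
GDNF minus untreated for each of the 46 ribosomal protein genes (rows, ordered by mean) in score units; small points are the 9 guts, ticks are their means, and red marks an adjusted p under 0.05 in limma. The 9 guts of Rps25, in the top row, lie between -2.59 and -1.44, and Rps16 and Rpl39l are the only rows with a mean above 0.

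Because members moved in the same direction, the RefSeq start sites were examined for the pyrimidine run that marks this class of mRNA. Promoter windows (250 bases before to 50 bases after the start) were matched by symbol for 40 of the 46 members, with 48 start sites in all, in build GRCm38.p6. The sequences below are shown for members that differ both in this run and in their response. Each covers 40 bases before the start and 20 bases from it, 5′ to 3′ on the strand of the gene. Capitals mark an unbroken run of C and T that covers the start site and is at least 6 bases long. Rplp2 (chr7:141447611-141447670, plus strand), Rpl35 (chr2:39005112-39005171, minus strand), Rps18 (chr17:33955646-33955705, minus strand) and Rps6 (chr4:86857348-86857407, minus strand) have such a run. Rps25 (chr9:44407674-44407733, plus strand), Rplp0 (chr5:115559427-115559486, plus strand) and Rps16 (chr7:28350649-28350708, plus strand) do not have it at the annotated start.
Rplp2: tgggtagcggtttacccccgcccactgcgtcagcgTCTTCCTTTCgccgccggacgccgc
Rpl35: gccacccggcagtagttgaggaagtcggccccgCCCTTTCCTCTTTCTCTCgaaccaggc
Rps18: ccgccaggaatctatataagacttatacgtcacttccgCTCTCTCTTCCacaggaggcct
Rps6: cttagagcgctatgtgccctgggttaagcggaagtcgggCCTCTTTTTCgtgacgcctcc
Rps25: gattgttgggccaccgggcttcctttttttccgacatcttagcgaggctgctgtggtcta
Rplp0: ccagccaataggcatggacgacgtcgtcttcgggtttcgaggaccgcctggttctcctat
Rps16: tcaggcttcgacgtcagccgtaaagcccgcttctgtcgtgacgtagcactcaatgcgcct

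The run is 10 bases long in Rplp2, 18 in Rpl35, 11 in Rps18 and 10 in Rps6. It covered the start in 12 of 48 member windows (25%), against 7.25% of the 32851 windows of all genes. Rps25 and Rplp0 were among the members with the largest differences without having it at the annotated start, and in Rps25 a run of pyrimidines lies upstream of that start. The 12 members with the run had a median difference of -0.71, with 7 called lower, and the 28 without it had a median of -0.997, with 19 called lower. A start that is annotated a few bases away from the one used would hide a run, so its absence says only that these letters are not at this position. On either strand of the whole window, the core of the ETS factor motif (CCGGAAG) was found in 41.7% of member windows and 8.86% of all windows, the YY1 motif (AAGATGGC) in 6.25% and 2.75%, and the TATA box (TATAAA) in 10.4% and 13.6%. The reverse of the ETS core opens with pyrimidines and can lie within a run, and such overlaps were not counted.

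Ribosomal protein genes have many processed pseudogenes in the genome, so that their probe sets can take signal from near-identical copies. In the platform's naming, the suffix _a_at marks probes shared by transcripts of 1 gene, _s_at probes shared by several transcripts, and _x_at probes of which some match other sequences. Of the 100 probe sets, 92 were lower with GDNF. Fitted singly, 60 were called lower and 0 higher, against 13.2% of all probe sets called lower. The 40 probe sets ending in _x_at had a median difference of -1.22, with 30 called, and the 26 ending in _a_at had -1.28, with 20 called. The 31 with the plain suffix _at had a median of -0.43, with 8 called. Over all genes, the medians of these suffixes lay between -0.02 and 0.04. Without _s_at and _x_at probe sets, 23 of the 41 members still measured were called lower and 0 higher, with a median of -0.87. Over all genes that fit called 2292 lower and 3179 higher.

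Of 23 members with several probe sets, 19 had all of them below 0, and 4 (Rpl37a, Rps18, Rps20 and Rps24) had probe sets of both signs. None of the 4 had probe sets called in both directions. Rps18, a protein in the head of the small subunit, shows the contrast best: its _a_at probe set differed by -1.71 and a plain _at probe set by 0.74, which was not called (limma adjusted p = 0.247). For Rps20 the plain and _a_at probe sets differed by 0.29 and 0.26 and were not called, while both _x_at probe sets fell, by 1.35 and 0.76. The 3 probe sets of Rps27l differed by -1.56 to -1.62, and the 4 of Rpl13a by -1.43 to -1.72. Between batches, over the 7 RNAs read in both, 22 of 100 member probe sets correlated below 0 (27.2% of all probe sets), and all 22 were lower with GDNF. Using only probe sets with a correlation above 0, 27 of 38 members were called lower, with a median of -1.15. Over all genes that fit called 2506 lower and 3524 higher. The correlation was taken over treated and untreated RNAs together, so this choice is not independent of the GDNF difference.

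**Figure D3:**
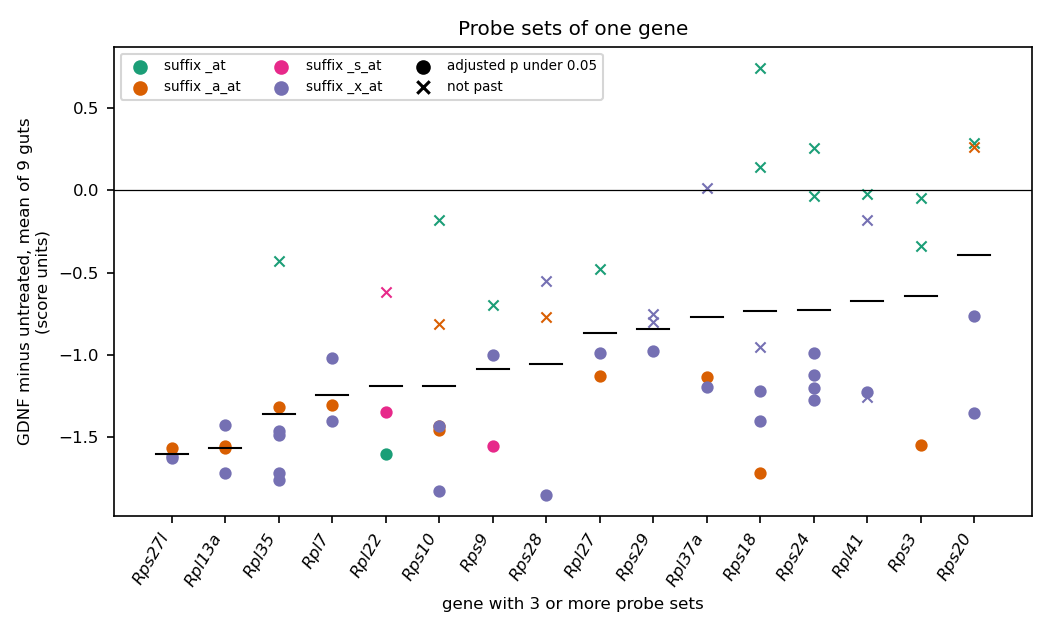
Mean GDNF minus untreated difference over 9 guts (vertical axis, score units) of every probe set of the 16 ribosomal protein genes with 3 or more; colour gives the suffix, filled circles passed an adjusted p under 0.05 in limma, crosses did not, and bars are the mean of the gene. Probe sets of Rps27l and Rpl13a lie close together, whereas those of Rps18 run from -1.71 to 0.74, with the plain _at probe sets on top.

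Within a group of wells the members also varied together. Over the 18 ENCC RNAs, with the mean of each group removed, the mean pairwise correlation of members was 0.248, against 0.00131 for all genes. These RNAs share wells, hybridisations and the scaling, so the value is a description. Rps19 followed the mean of the other members closely (correlation 0.830), Rpl22 did so at 0.791 and Rpl11 at 0.710. Rps6 (0.0459) and Rps16 (0.0585) hardly did, and 5 of 46 members lay below 0: Rpl27a (-0.570), Rpl14 (-0.563), Rps2 (-0.418), Rpsa (-0.273) and Rpl39l (-0.0522). The median over members was 0.637.

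Genes that work with the ribosome were described through lists of their own, where 13.2% of all genes were called lower with GDNF and 18.3% higher. Fau, which encodes the small subunit protein eS30 fused to a ubiquitin-like protein, and Rps3a1 lie outside the naming rule, and 3 of 4 such ribosomal genes fell, Fau by 1.54 and Rps3a1 by 1.22. Elongation factors and other mRNAs with a terminal pyrimidine run fell in 7 of 10 and rose in 0, led by the elongation factor subunit Eef1b2 (-1.76 ± 0.96, SD, n = 9 guts) and by Naca (-1.47 ± 0.79), part of a complex that binds nascent chains. Of 45 ribosome biogenesis genes, 16 fell and 2 rose, with a median of -0.42. Tsr1, a small subunit assembly factor, fell by 1.36 and the nucleolar Mybbp1a by 1.35, whereas Nop10, part of the H/ACA particle that modifies rRNA, rose by 1.20 and Bysl, another assembly factor, by 0.70.

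Initiation factors were mixed, with 9 of 28 lower and 2 higher and a median of -0.21, where 13.2% of all genes were lower and 18.3% higher. Eif5b, which joins the subunits, fell by 1.05 and Eif1ax, which helps select the start codon, by 0.99, while the guanine exchange factor subunits Eif2b4 and Eif2b1 rose by 1.53 and 1.20. The list for the control of ribosome synthesis held 12 genes, among them Mdm2, which the particle of Rpl11 can bind and inhibit. Mdm2 fell by 1.23, Rps6kb2, an S6 kinase gene, rose by 1.24, and the other 10, Mtor, Larp1 and Myc among them, did not pass. Of these, Larp1 lay just past the threshold at 0.84 (limma adjusted p = 0.0505) and was lower in 2 of 9 guts. The mitochondrial ribosome, built from other proteins, moved differently: of 73 genes 30 rose and 6 fell, with a median of 0.49. Mrpl44 rose by 1.64 and Mrpl55 by 1.57, and Mrpl23 fell by 1.62 and Mrpl13 by 0.99. Whether these lists differed from the members was not tested.

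**Figure D4:**
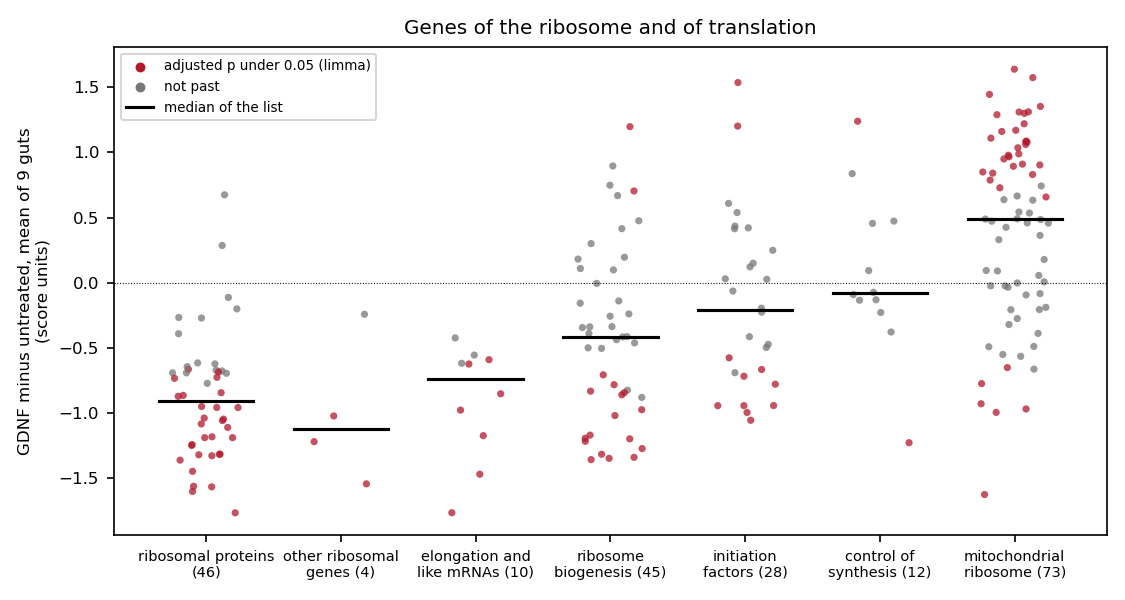
Mean GDNF minus untreated difference over 9 guts (vertical axis, score units) for each gene of 7 lists, with the number of genes measured in brackets; red points passed an adjusted p under 0.05 in limma, black bars are list medians, and the horizontal spread of points is random. Medians run from -1.12 for ribosomal genes outside the naming rule and -0.91 for the 46 members to 0.49 for the mitochondrial ribosome.

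Other measures moved with GDNF in the same wells, where 13.2% of all genes were called lower and 18.3% higher. Of 8 neuron markers 6 rose and 0 fell, led by Elavl3 (2.04) and Tubb3 (1.80); the mean score of the list was -1.48 to -0.16 in untreated and -0.10 to 0.63 in treated wells of batch 1. Of 9 markers of smooth muscle and mesenchyme 3 fell and 0 rose, led by Osr1 (-1.76) and Pdgfrb (-1.35), and the list's mean score was -0.30 to 0.89 in untreated and -0.91 to 0.35 in treated wells of batch 1. Among 8 ENCC markers, Phox2a (1.41) and Gfra1 (1.01) rose, and none of 7 proliferation markers was called. Of the remaining cell type lists, Krt20 (0.88) of 9 epithelial and Pecam1 (1.34) of 5 endothelial genes rose, Adgre1 (-0.96) of 5 macrophage genes fell, and 0 of 3 erythroid genes was called. The hybridisation controls, added to the sample before hybridisation, were lower in the treated well in 6 of 9 guts (-0.72 ± 0.99, SD), and the difference between 5′ and 3′ probe sets of Gapdh and Actb, a measure of transcript completeness, was higher in 6 of 9 guts (0.24 ± 0.41, SD). With the former as a covariate 30 members were called lower (9.87% of all genes), with a median over members of -1.12. With the latter 22 were called lower, with a median of -0.91 as without it, and the calls over all genes fell as well, from 2404 to 1644 lower. The part of the cell type markers in the result was not tested.

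The second comparison set untreated ENCCs against whole gut, in the 4 untreated and 8 whole gut arrays of batch 2. No member was called: 0 of 46 were lower and 0 higher (limma), where 17.7% of all genes were called lower and 14.9% higher. At an unadjusted p under 0.05, 2 members were lower and 0 higher, against 22.8% and 19.6% of all genes. The median difference over members was -0.28, against -0.01 over all genes, and 39 of 46 members lay below 0. Untreated scores lay below all whole guts for 1 member, Rps4l, where this held for 15.2% of all genes. Every array, of ENCCs or of whole gut, holds the same range of scores. A unit therefore need not be of the same size in both, here and in the third comparison, and this was not tested. Cultured ENCCs and whole tissue differ in cell type, in genotype and in handling, which cannot be told apart here.

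The outcome turned on single wells. Without the untreated array of gut 2, 8 or 9, 1, 3 or 2 members were called lower, where 16.9%, 17.0% or 16.1% of all genes were. Without the untreated array of gut 3 the median over members was 0.05, and 3 members were called higher in untreated ENCCs than in whole gut: Rpl39 by 1.18, Rps27l by 0.89 and Rplp0 by 0.53. This is a smaller share than the 17.3% of all genes called higher in that fit. For Rps27l the untreated scores were 1.48 in gut 2, 0.04 in gut 3, 2.02 in gut 8 and 1.00 in gut 9, and the whole guts scored 0.40 to 0.75 with a median of 0.66. All but gut 3 thus lay above the whole guts. For Rplp0 the untreated scores were 1.56 in gut 2, -0.12 in gut 3, 1.74 in gut 8 and 1.54 in gut 9, against 0.98 to 1.20 in whole gut. With gut 3 included, the difference of Rplp0 was 0.10 (95% interval -0.51 to 0.72; limma adjusted p = 0.821).

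The third comparison set the GDNF-treated ENCCs of batch 2, again 4 arrays, against the same 8 whole guts, so that its control samples are those of the second. Here 28 of 46 members were lower and 0 higher (limma), against 20.5% of all genes called lower and 20.5% higher. The median difference over members was -0.998, and -0.02 over all genes. For 26 members every treated array lay below every whole gut, which held for 17.1% of all genes. The whole guts varied little, with a median SD over members of 0.10, where untreated ENCCs had 0.84 and treated ENCCs 0.52. Over all genes the median SDs were 0.154, 0.755 and 0.709 in the same order. This fit assigns 1 spread to all groups, and with the spread of the ENCC arrays alone 23 members were called lower (15.6% of all genes), and for untreated ENCCs again 0 (11.8% of all genes).

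Rpl4 had the lowest difference from whole gut. Its treated scores were -0.12 in gut 2, 0.39 in gut 3, -2.92 in gut 8 and -0.45 in gut 9, and its whole guts scored 1.45 to 1.61 with a median of 1.54. All 4 treated arrays lay below the whole guts, gut 8 furthest, and the difference was -2.31 ± 0.44 (standard error of the fit; limma adjusted p = 0.00033). Untreated Rpl4 differed from whole gut by -0.53 (95% interval -1.45 to 0.40), with gut 3 the lowest at 0.16. Rps19 scored 0.19, -0.22, -1.84 and -1.37 in the treated wells of guts 2, 3, 8 and 9, against 1.24 to 1.32 in whole gut. The groups did not overlap, and the difference was -2.10 ± 0.32 (standard error; limma adjusted p = 3.3e-05).

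Rpl22 followed, at 0.51, 0.13, -1.92 and -1.15 in the same wells against 1.27 to 1.51 in whole gut. Its difference was -2.01 ± 0.36 (standard error; limma adjusted p = 0.00015), and guts 8 and 9 were again the lower pair. The P stalk members were lower too, Rplp0 at -1.91 and Rplp2 at -1.66 (limma adjusted p = 3.5e-05 and 0.00073). Rps25, the member with the largest GDNF difference, lay 0.53 above whole gut in untreated wells, which was not called (95% interval -0.04 to 1.09), and -1.09 from it in treated wells, which was (limma adjusted p = 0.00283). Rps6 lay -0.85 from whole gut in treated wells (limma adjusted p = 0.00302), a call that was lost with the spread of the ENCC arrays alone (adjusted p = 0.0659).

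Several members that fell with GDNF were not called against whole gut in treated wells. Rpl11 scored 0.24, 0.42, 0.60 and 0.25 in the treated wells of guts 2, 3, 8 and 9 against 0.48 to 0.62 in whole gut, a difference of -0.18 (95% interval -0.95 to 0.58; limma adjusted p = 0.733). Its untreated scores were 0.59 in gut 2, -1.96 in gut 3, 0.76 in gut 8 and 0.54 in gut 9, so that gut 3 alone lay far below. Rpl39 scored 0.31, 0.27, -0.92 and -1.44 in treated wells and 0.28 to 0.73 in whole gut, and its difference of -0.95 did not pass (limma adjusted p = 0.0840). It was called without gut 2 (-1.20) or gut 3 (-1.19). Rps27 was called in treated wells (-1.42; limma adjusted p = 0.0200) but not without gut 3 (-0.96) or gut 8 (-1.31), and Rpsa (-1.11; limma adjusted p = 0.0114) was not called without gut 3 (-0.75).

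Rpl39l, Rpl3l and Rps16 were not called against whole gut. In treated wells Rpl39l differed by 0.52 (95% interval -0.55 to 1.60), Rpl3l by 0.47 (-0.68 to 1.61) and Rps16 by 0.65 (-0.24 to 1.55). In untreated wells the differences were -0.42, 0.08 and -0.29. Another paralogue, Rps27l, lay -1.40 from whole gut in treated wells (limma adjusted p = 0.00069), and all 4 treated arrays, from -1.28 to -0.39, lay below the 8 whole guts. By subunit, 16 of 22 small and 12 of 24 large subunit members were lower in treated ENCCs than in whole gut, with medians of -1.05 and -0.92. Of all genes, 20.5% were called lower there, and no difference between the subunits was tested.

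**Figure D5:**
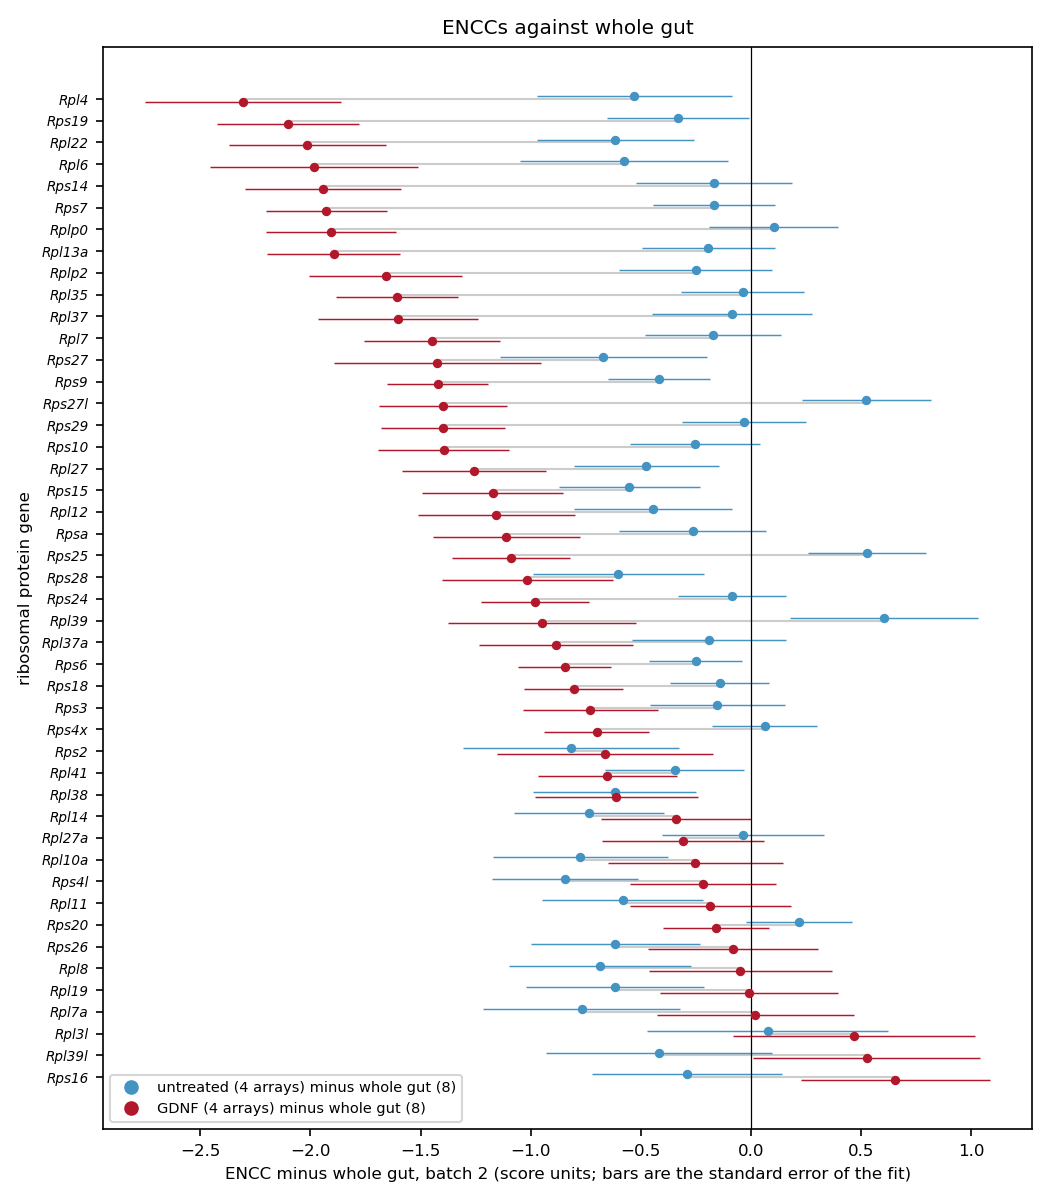
Difference from whole gut (horizontal axis, score units) of each of the 46 ribosomal protein genes in untreated (blue) and GDNF-treated (red) ENCCs of batch 2, with 4 arrays each against the same 8 whole guts; bars are the standard error of the fit, and genes are ordered by the treated difference. Red points run from -2.31 for Rpl4 to 0.65 for Rps16, and blue points from -0.84 for Rps4l to 0.60 for Rpl39.

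The lists of ribosome and translation genes were set against whole gut as well. For untreated ENCCs 17.7% of all genes were called lower and 14.9% higher, and for treated ENCCs 20.5% lower and 20.5% higher. Of 45 biogenesis genes, 19 were called lower and 2 higher in untreated ENCCs, and 22 lower and 1 higher in treated ENCCs. Of 73 mitochondrial ribosome genes, 39 were lower and 3 higher in untreated and 29 lower and 4 higher in treated ENCCs. Of 10 elongation genes, 1 was lower and 1 higher in untreated, and 8 lower and 0 higher in treated ENCCs. Proliferation markers were lower in 6 of 7 and in 7 of 7, respectively, and their part in these values was not tested.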

How the data were processed

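RNA was read on Affymetrix arrays. The deposited values are scores; per the submitters' processing notes RMA was used (no version given), and the rest was read from the values: the sorted 45101 values of an array equal normal quantiles (largest deviation 5e-06), and probe sets appear to have been centred within a batch on the 7 RNAs read in both (SD of that mean 0.0585 in batch 1 and 0.117 in batch 2). Brightness and depth are thus unknown, no dim probe set could be removed, and leaving an array out does not take it out of this scaling. Gene symbols are those of the platform annotation: 932 probe sets with several symbols, 9160 with none and 64 controls were left out.

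Gene scores (means of probe sets) were fitted with limma 3.58.1 (R 4.3.3, statmod 1.5.0; lmFit, eBayes without trend; threshold 0.05). GDNF was tested on treated minus untreated scores of a gut, taken within a batch and averaged over batches for guts 3, 8 and 9. The labels' treatment protocol says that 1 gut gave both wells, and the numbers in the titles were read as gut numbers. After removal of group means, wells of a gut correlated at 0.0626 to 0.296, and the medians with wells of other guts were -0.152 to -0.00647. In guts 3, 6, 8 and 9 the best match was a well of another gut. ENCCs were set against whole gut in batch 2, with 1 spread for the 3 groups. Simulated data were used only to check that the code recovers added shifts. Genes were drawn independently there, unlike the members, so the p-values given here were not checked by it. The labels do not say whether guts were pooled, so p-values measure the spread between these samples. Promoters are RefSeq's (GRCm38.p6); proteins were not analysed here.

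Members and lists were chosen with earlier results of these data known. The text names the 3 called members with the largest difference per comparison and direction, and members chosen by role. It also names the 2 called genes with the largest difference per direction of each other list. Rps16, Rps4l and the members of the batch, probe set, promoter and mRNA channel paragraphs are additions. Alternatives covered the choice of probe sets, rank fractions, batch, pairing, control probe sets and arrays left out.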

Additional observations from a re-analysis of the deposited data

Results flagged for a closer look

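In groups of 4 to 10 samples, 4 of 68 tested groups of the members named above held a sample far from the others by Dixon's criterion, which chance alone flags in about 1 of 20 groups. Rpl11 scored -1.962 on the untreated array of gut 3 in batch 2, where the other 3 untreated arrays of that batch lay between 0.537 and 0.7614. Rplp0 scored -0.1164 on the same array, and the others lay between 1.544 and 1.736. Rplp2 scored 1.059 in whole gut 2, against 1.213 to 1.278 in the other 7 whole guts. The GDNF difference of Rps25 was -2.587 in gut 4, against -1.885 to -1.437 in the other 8 guts.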

How the results depend on the processing

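The median over members kept its sign for GDNF and for treated ENCCs against whole gut under all alternatives run. Without the replicate block, which compares wells without their pairing by gut, 28 members were lower with GDNF and 0 higher. Over all genes the shares were 10.6% and 16.1%. The median over members was -0.95, and Rpl11 (-0.72) was no longer called. Batch 2 alone called 0 members, and Rpl11 changed sign there (0.3971). Leaving out each replicate in turn gave 24 to 33 members lower with GDNF and 0 to 1 higher. Over all genes 11.1% to 13.9% were lower and 16.4% to 18.5% higher. For untreated ENCCs against whole gut it gave 0 to 3 lower and 0 to 3 higher (15.7% to 19% and 13.1% to 17.3% of all genes). For treated ENCCs it gave 23 to 30 lower and 0 higher (18.9% to 20.1% and 19.2% to 20.6% of all genes). The fit over all ENCC arrays called 1 member higher with GDNF (Rps16), against 19.7% of all genes. With rank fractions, 2 members were lower in untreated ENCCs than in whole gut, against 19.4% of all genes. Without both arrays of gut 3 in batch 2, an alternative chosen after seeing the data, 3 were higher, against 18.7% of all genes. For treated ENCCs against whole gut the median was -1.36 with the most reproducible probe set of each gene and -1.42 with probe sets that correlate above 0 between batches (38 members, also chosen after seeing the data), against -0.998. The cause was not tested, except that batch 2 alone holds 4 guts. For named members, 303 of 335 values for GDNF kept their call and direction, as did 294 of 303 for treated and 297 of 303 for untreated ENCCs against whole gut; a change of sign between values not called was not counted. The number of arrays, and the missing brightness, limit the precision.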
